A study of Mus musculus with 7 samples.

Results

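The *BCL2* family was followed in Paneth cells (PCs), the granule-filled antimicrobial cells that sit at the crypt bottom of the small intestine, as 10 genes taken by symbol from the count table: the pro-survival genes *Bcl2*, *Bcl2l1* and *Mcl1*, the effectors *Bax* and *Bak1*, and the BH3-only genes *Bid*, *Bad*, *Pmaip1*, *Bcl2l11* and *Bmf*. All 10 matched an identifier among 55414 in the table, and all 10 passed the filter on low counts that 14329 genes passed. The PCs were sorted from C57BL/6J mice 15 h after an injection of PBS, in 3 mice, or of tumour necrosis factor (TNF), in 4 mice, and each library came from a separate mouse. All mice carried the same strain background and no allele is named in the labels. The sources used here do not give age, sex, dose, route or sort markers.

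Proteins of this family meet at the outer mitochondrial membrane. BAX and BAK1 form the pores that release cytochrome c, the pro-survival proteins hold them and the BH3-only proteins in check, and each BH3-only protein carries a different stress signal to them. TNF can reach this step through caspase-8, which cleaves BID, while the NF-kB pathway that TNF also switches on is known for raising pro-survival genes.

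The start sites of 4 members are shown. Among the 9 members searched, *Mcl1* and *Bcl2l1* held the only matches to the motifs, and *Bcl2* and *Bmf* were the members that fell after TNF. Each window runs from 250 bases before a RefSeq start site to 50 bases after it, 5′ to 3′ along the gene (build GRCm38.p6). Capitals mark the letters of a kappa B match, the kind of site that NF-kB proteins bind.
Mcl1, chr3:95658471-95658770, plus strand: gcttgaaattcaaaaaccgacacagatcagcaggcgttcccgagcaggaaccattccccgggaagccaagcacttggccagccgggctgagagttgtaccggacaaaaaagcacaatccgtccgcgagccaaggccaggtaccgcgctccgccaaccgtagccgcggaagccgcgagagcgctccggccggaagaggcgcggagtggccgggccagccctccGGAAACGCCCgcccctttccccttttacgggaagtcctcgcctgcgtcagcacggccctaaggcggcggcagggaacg
Bcl2l1, chr2:152830668-152830967, minus strand: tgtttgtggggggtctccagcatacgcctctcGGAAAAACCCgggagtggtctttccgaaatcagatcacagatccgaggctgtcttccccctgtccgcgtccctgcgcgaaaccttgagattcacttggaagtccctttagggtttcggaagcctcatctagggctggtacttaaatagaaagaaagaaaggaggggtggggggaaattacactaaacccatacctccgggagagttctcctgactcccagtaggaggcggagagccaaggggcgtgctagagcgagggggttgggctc
Bcl2, chr1:106714241-106714540, minus strand: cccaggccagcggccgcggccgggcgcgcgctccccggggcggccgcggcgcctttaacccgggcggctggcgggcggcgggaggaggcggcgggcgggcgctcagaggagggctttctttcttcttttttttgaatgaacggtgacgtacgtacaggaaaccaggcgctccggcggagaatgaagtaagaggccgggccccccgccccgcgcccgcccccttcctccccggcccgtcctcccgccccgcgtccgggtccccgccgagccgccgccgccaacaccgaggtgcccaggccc
Bmf, chr2:118544538-118544837, minus strand: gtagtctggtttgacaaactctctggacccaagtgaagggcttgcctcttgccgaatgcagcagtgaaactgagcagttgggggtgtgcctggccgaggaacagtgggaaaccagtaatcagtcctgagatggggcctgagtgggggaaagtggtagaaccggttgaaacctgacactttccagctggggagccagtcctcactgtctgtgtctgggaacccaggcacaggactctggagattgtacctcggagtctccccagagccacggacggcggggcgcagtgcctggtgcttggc

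Of the 10 members, 9 were searched, with 15 RefSeq windows in all, for 8 motifs on both strands. *Pmaip1*, which lies on chromosome 18, was left out of the search. The kappa B letters, GGG and TTCC with any 3 bases between them, matched in 2 of the 15 windows, on the minus strand relative to the gene. The match in *Mcl1* began 28 bases before the start site and that in *Bcl2l1*, in the second of its 3 windows, 218 bases before it. The same letters were found in 5.56% of all 32851 windows. The other 7 motifs had no match in any of these 15 windows. Over all windows, the interferon-related letters TTCNNNGAA (GAS) were found in 8.3%, and a GAAA repeat with any 2 bases between its copies (ISRE) in 3.44%. The cyclic AMP element TGACGTCA (CRE) was found in 1.79% and the amino acid response element TGATGCAAT (CARE) in 0.192%. The AP-1 letters TGANTCA were found in 7.81% of windows. A CATG repeat with any 6 bases between its copies, as in p53 half-sites, was found in 0.712%, and the TATA box letters TATAAA in 13.6%. The windows also differed in base content: that of *Bcl2* held 44 CG pairs and that of *Mcl1* 33, while the 3 windows of *Bcl2l1* held 1, 14 and 22 and those of *Bmf* 8, 13 and 6, against a median of 7 over all windows. A match of letters is a description of the sequence, and binding was not measured.

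The libraries held between 15511455 and 19193721 counts. Levels are in CPM, counts scaled to a library of 1000000, after library sizes had been adjusted by edgeR's TMM method, and a gene is called changed at an adjusted p under 0.05 in edgeR's quasi-likelihood test, corrected over all 14329 genes. The difference between TNF and PBS was broad, with 59.6% of all genes tested called, 29.5% higher and 30.1% lower, and with 60.7% of genes showing no overlap in CPM between the groups. Counts of members must be read against these shares. The PC markers stood at summed levels of 164787 to 264673 CPM after PBS and 159252 to 285516 CPM after TNF, with 2 of 8 called higher and 2 lower. Markers of other cells moved with treatment: all 5 stem cell markers were called lower (summed level 2550 to 3690 CPM after PBS, 998 to 1630 CPM after TNF), as were all 6 tuft cell markers (1400 to 2310 CPM, then 265 to 677 CPM) and 4 of 5 tested enterocyte markers (43.1 to 122 CPM, then 6.54 to 10 CPM). Of the goblet cell markers 4 were called lower and 1 higher (6670 to 12821 CPM, then 6170 to 6790 CPM), and of 6 enteroendocrine markers 2 were called lower. Leukocyte markers summed to 12 to 26.8 CPM after PBS and 7.01 to 13.8 CPM after TNF, with *Cd3e* and *Ms4a1* at 0 in every library. All 5 stromal and all 3 erythroid markers were under 1 CPM in every library, with *Hbb-bs* and *Hba-a1* at 0.

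Among the 10 members, 6 rose after TNF, 2 fell and 2 were not called. Thus 80% were called, where 59.6% of all genes tested were called, 29.5% higher and 30.1% lower. *Pmaip1*, *Bax*, *Mcl1*, *Bid*, *Bcl2l1* and *Bak1* rose, *Bcl2* and *Bmf* fell, and *Bad* and *Bcl2l11* did not pass the test. The median log2 fold change over the members was 0.55, against 0.0017 over all genes tested. In 7 of the 10 the TNF libraries did not overlap the PBS libraries, lying above them for 5 members and below them for 2 (29.9% and 30.9% of all genes tested). Of the 8 called members, 5 changed at least 2-fold, 3 upwards (*Pmaip1*, *Bax*, *Mcl1*) and 2 downwards (*Bcl2*, *Bmf*), where 14.4% and 17.2% of all genes tested did so. In bulk RNA, fewer cells of a type and less RNA per cell cannot be told apart, and this holds for every change given here.

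**Figure D1:**
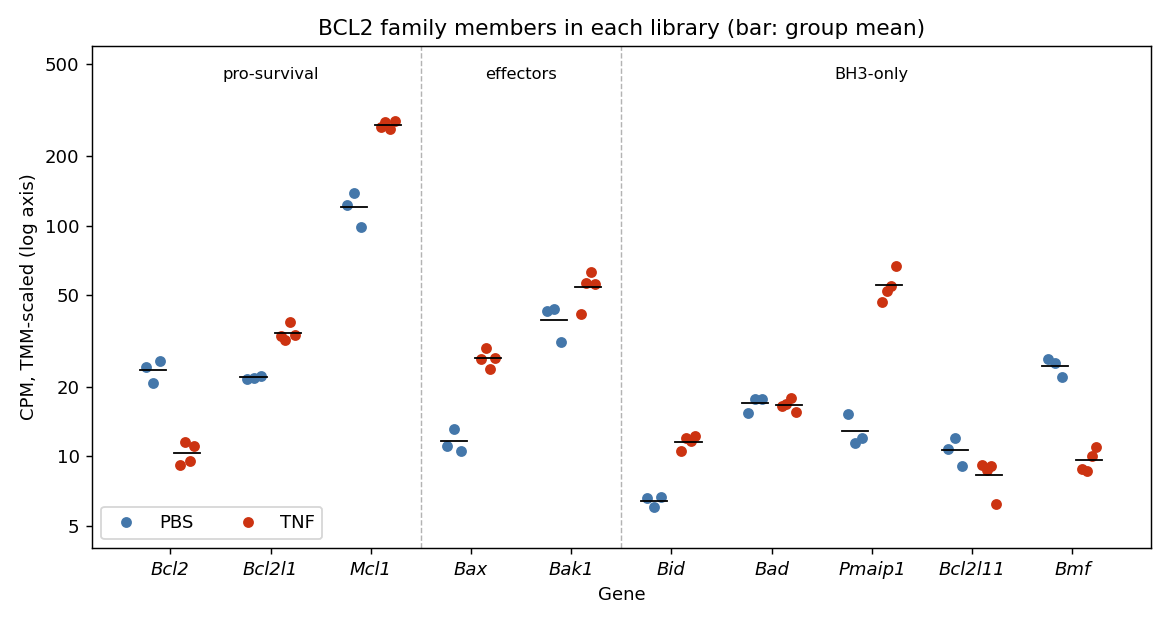
Level of each of the 10 *BCL2* family members in every library, as TMM-scaled CPM on a log axis, with PBS libraries in blue (3), TNF libraries in red (4) and a bar at each group mean. *Pmaip1* shows the widest upward gap, from at most 15.3 CPM after PBS to at least 46.7 CPM after TNF, while *Bcl2* and *Bmf* lie lower in every TNF library than in any PBS library.

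The pro-survival genes split. *Mcl1* (ENSMUSG00000038612, GRCm39 chr3:95566026-95570487, plus strand), which encodes a short-lived protein that holds BAK1 and BIM, measured 123, 139 and 98.3 CPM in the PBS libraries. After TNF it measured 266, 280, 261 and 283 CPM. Every TNF library was thus above every PBS library, and the gene rose 2.27-fold (log2 fold change 1.18 ± 0.12 SE, adjusted p = 2.06e-06). *Bcl2l1* (ENSMUSG00000007659, GRCm39 chr2:152622582-152673655, minus strand), the gene of BCL-XL, measured 21.7, 21.9 and 22.3 CPM after PBS, the tightest group of any member. It measured 33.2, 32, 38.1 and 33.6 CPM after TNF, again with no overlap. Its rise was smaller, 1.56-fold (log2 fold change 0.64 ± 0.11 SE, adjusted p = 0.000266).

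*Bcl2* (ENSMUSG00000057329, GRCm39 chr1:106465908-106642060, minus strand), the founding pro-survival gene of the family, went the other way. Its levels were 24.4, 20.8 and 25.9 CPM after PBS and 9.18, 11.5, 9.58 and 11.1 CPM after TNF. The highest TNF library lay below the lowest PBS library, and *Bcl2* fell to 0.436 of its PBS level (log2 fold change -1.20 ± 0.15 SE, adjusted p = 1.05e-05). The summed stem cell and tuft cell markers were also lower in all 4 TNF libraries than in any PBS library, and their part in the fall of *Bcl2* was not tested.

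Of the effectors, *Bax* (ENSMUSG00000003873, GRCm39 chr7:45111015-45116325, minus strand) measured 11.1, 13.2 and 10.6 CPM after PBS and 26.5, 29.5, 23.9 and 26.8 CPM after TNF. The groups were well apart, and *Bax* rose 2.3-fold (log2 fold change 1.20 ± 0.14 SE, adjusted p = 6.32e-06). *Bak1* (ENSMUSG00000057789, GRCm39 chr17:27238784-27247983, minus strand), the other pore-forming gene, measured 42.6, 43.7 and 31.2 CPM after PBS and 41.5, 56.5, 62.7 and 55.8 CPM after TNF. Here the groups overlapped, since TNF replicate 1 lay below 2 of the PBS libraries. The rise of *Bak1* was 1.38-fold (log2 fold change 0.47 ± 0.15 SE, adjusted p = 0.0183). It was no longer called without PBS replicate 3 (0.32, adjusted p = 0.0869), without TNF replicate 3 (0.38, adjusted p = 0.0614) or with scaling to total counts alone (0.31, adjusted p = 0.0994). Nor was it called with the replicate number as a block (0.45, adjusted p = 0.0756).

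The BH3-only genes moved in different directions. *Pmaip1* (ENSMUSG00000024521, GRCm39 chr18:66591604-66598636, plus strand), which encodes NOXA, a protein that binds chiefly MCL1, changed most of the 10 members. It measured 15.3, 11.4 and 12 CPM after PBS and 46.7, 52, 54.7 and 67.1 CPM after TNF. The lowest TNF library was well above the highest PBS library, and the rise was 4.28-fold (log2 fold change 2.10 ± 0.16 SE, adjusted p = 8.06e-08). *Bid* (ENSMUSG00000004446, GRCm39 chr6:120862525-120894171, minus strand), whose protein links death receptors to the mitochondrion, was among the lowest members. Its levels were 6.61, 6.01 and 6.68 CPM after PBS and 10.5, 12, 11.7 and 12.2 CPM after TNF, with no overlap. *Bid* rose 1.8-fold (log2 fold change 0.85 ± 0.17 SE, adjusted p = 0.00076). Of its annotated exon bases, 3059 are shared with *Bcl2l13* on the opposite strand, and no source used here gives the strand setting of the counting, so reads of the pair may be mixed.

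*Bmf* (ENSMUSG00000040093, GRCm39 chr2:118359238-118380177, minus strand), whose protein is held at the cytoskeleton through dynein light chain 2, fell. It measured 26.3, 25.3 and 22.1 CPM after PBS and 8.79, 8.66, 10 and 11 CPM after TNF. No TNF library came near a PBS library, and the level dropped to 0.391 of that after PBS (log2 fold change -1.36 ± 0.15 SE, adjusted p = 3.07e-06). As for *Bcl2* and the other genes that fell, the part of the lower stem cell and tuft cell markers was not tested.

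*Bad* and *Bcl2l11* did not pass the test. *Bad* (ENSMUSG00000024959, GRCm39 chr19:6918902-6929280, plus strand), whose protein is switched off by phosphorylation by survival kinases, measured 15.4, 17.7 and 17.8 CPM after PBS and 16.5, 16.8, 17.9 and 15.5 CPM after TNF. Its log2 fold change was -0.03 (95% confidence interval -0.32 to 0.27, adjusted p = 0.881), a range that leaves out a 2-fold change in either direction. *Bad* shares 914 exon bases with *Gpr137* on the opposite strand. *Bcl2l11* (ENSMUSG00000027381, GRCm39 chr2:127967958-128004476, plus strand), the gene of BIM, measured 10.8, 12 and 9.07 CPM after PBS and 9.18, 8.72, 9.05 and 6.22 CPM after TNF. Its groups overlapped narrowly, and its log2 fold change was -0.35 (95% confidence interval -0.78 to 0.07, adjusted p = 0.135).

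To compare levels between genes, CPM was divided by the length of the annotated exons in kb. On this scale *Mcl1* led in both groups, at 34.4 ± 5.86 CPM per kb (SD over 3 libraries) in the PBS group and 78.1 ± 3.09 (SD over 4 libraries) in the TNF group. After PBS it was followed by *Bak1* at 16.3 ± 2.88, *Bax* at 6.25 ± 0.752, then *Pmaip1*, *Bmf* and *Bcl2l1* at 4.72 to 4.28 CPM per kb, neighbours whose ranges overlapped. *Bad*, *Bcl2*, *Bcl2l11* and *Bid* came last, at 3.78, 2.57, 1.05 and 0.657 CPM per kb. After TNF, *Pmaip1* stood at 20.2 ± 3.18 CPM per kb and overlapped *Bak1* at 22.5 ± 3.72. *Bax* (14.4), *Bcl2l1* (6.67), *Bad* (3.72) and *Bmf* (1.83) followed, and the ranges of *Bid* (1.18) and *Bcl2* (1.12) overlapped. *Bcl2l11* was the lowest, at 0.82 CPM per kb. *Mcl1* also led with the length of the canonical transcript in place of all annotated exons, but the order below it changed. On that scale *Bad* stood at 14.3 CPM per kb after PBS, with a range that overlapped that of *Bax* at 11.9 and lay above that of *Bcl2l1* at 6.73, and *Bid* stood at 2.92. After TNF *Bax* had a mean of 27.3 CPM per kb against 22.7 for *Bak1*, with overlapping ranges, and *Bid* at 5.27 lay above *Bcl2* at 1.43 without overlap.

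The summed level of the 10 members was 78.7 ± 9.47 CPM per kb in the PBS group and 150 ± 7.98 in the TNF group (SD, n = 3 and n = 4). *Mcl1* held 43.6% ± 2.37 of that sum after PBS and 52% ± 2.03 after TNF, *Pmaip1* 6.05% ± 1.07 and 13.4% ± 1.51, and *Bcl2* 3.33% ± 0.757 and 0.744% ± 0.0528. By role, the 3 pro-survival members held 52.4% ± 1.08 and 57.1% ± 1.99 of the sum over these 10 genes. The effectors held 28.5% ± 1.02 and 24.5% ± 1.59, a difference of -4.07 percentage points that shrank to -0.36 with the length of the canonical transcript. The BH3-only genes held 19.1% ± 1.86 and 18.4% ± 1.34, and this difference of -0.67 points was -5.34 with the canonical transcript and 0.19 without PBS replicate 3. The role shares also depended on which family genes were counted. With the pro-survival gene *Bcl2l2* added, at 15.4 CPM per kb after PBS and 10.8 after TNF, the pro-survival share was 60.2% and 60%. With the effector *Bok* added as well, at 2.04 and 15.8 CPM per kb, the pro-survival share was 58.9% and 54.6% and the effector share 25.5% and 29.7%, so that both differences turned. No test was applied to these shares, and no direction of the balance between roles is read from them.

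**Figure D2:**
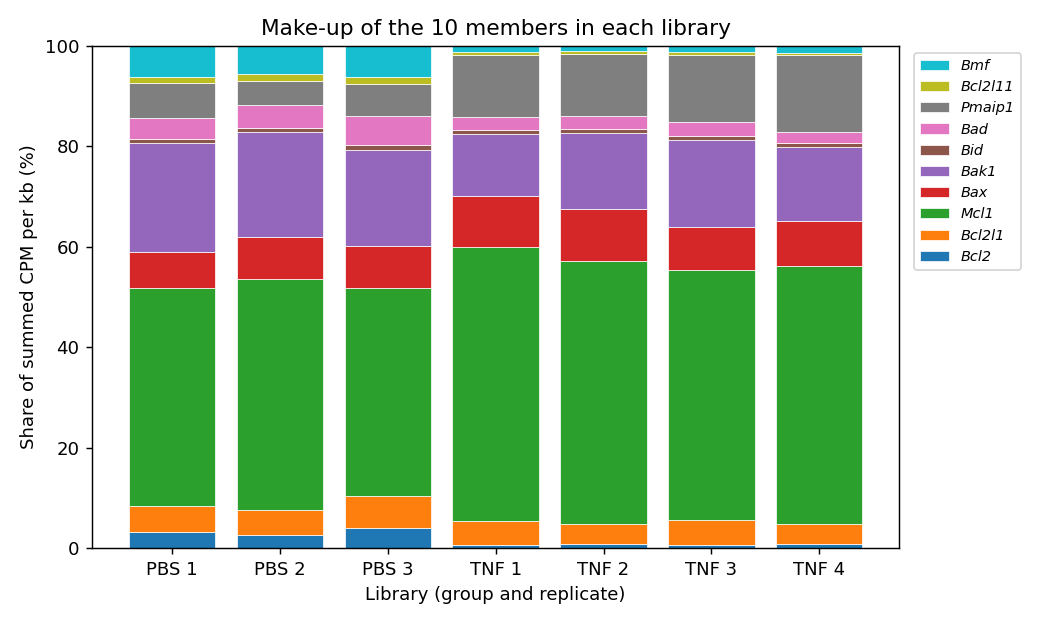
Share of each member in the summed CPM per kb of exon of the 10 members, in percent, for the 3 PBS and 4 TNF libraries. *Mcl1* (green) takes 41.4% to 46.1% after PBS and 49.8% to 54.6% after TNF, and *Pmaip1* (grey) grows while *Bcl2* (blue) and *Bmf* (cyan) shrink.

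Ratios of counts within a library do not depend on scaling between libraries. In all, 7 pairs were computed. They were chosen after values had been seen, so they are given as a description, with no test. *Bax* to *Bcl2* was 0.454, 0.633 and 0.408 after PBS and 2.89, 2.57, 2.49 and 2.43 after TNF. The raw count of *Bax* was therefore below that of *Bcl2* in every PBS library and above it in every TNF library. Per kb of exon, where the shorter *Bax* gains, its level was the higher in both groups, at 6.25 against 2.57 CPM per kb after PBS and 14.4 against 1.12 after TNF. *Mcl1* to *Bcl2* went from a mean of 5.18 ± 1.44 to 26.6 ± 2.01 and *Pmaip1* to *Bmf* from 0.525 ± 0.0679 to 5.72 ± 0.393. *Pmaip1* to *Mcl1*, the pair of NOXA and its main partner, had means of 0.109 ± 0.0236 and 0.202 ± 0.0274, and *Bax* to *Bak1* 0.3 ± 0.0393 and 0.506 ± 0.107. *Bok* to *Bax* went from 0.44 ± 0.125 to 1.45 ± 0.168. *Mcl1* to *Bax* stood at a mean of 10.3 in both groups, with an SD of 0.938 after PBS and 0.628 after TNF.

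**Figure D3:**
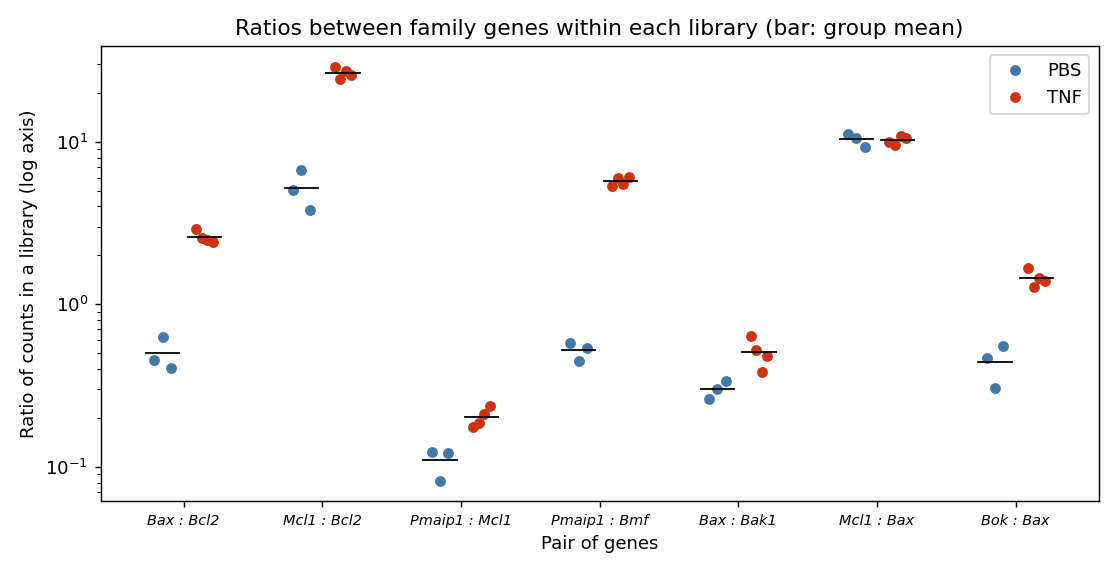
Ratio of the counts of 2 genes within each library for 7 pairs, on a log axis, with PBS libraries in blue (3), TNF libraries in red (4) and a bar at each group mean. The groups are apart for 6 pairs and mixed for *Mcl1* to *Bax*, with group means of 10.3.

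A further 15 genes of the family were listed, of which 10 passed the filter on low counts and 8 were called, 4 higher and 4 lower (4 and 2 without PBS replicate 2). The 8 were 80% of those tested, where 59.6% of all genes tested were called, 29.5% higher and 30.1% lower. *Bok*, an effector relative of BAX and BAK1, measured 5.13, 4.02 and 5.83 CPM after PBS and 44.6, 37.8, 34.8 and 37.5 CPM after TNF. It rose 7.75-fold (log2 fold change 2.95 ± 0.16 SE, adjusted p = 5.58e-09), more than any of the 10 members. *Bik*, a BH3-only gene, rose from 0.989, 1.12 and 2.07 CPM to 5.26, 6.48, 6.1 and 5.63 CPM (log2 fold change 2.06 ± 0.33 SE, adjusted p = 9.76e-05). *Bcl2l15*, a little-studied relative, was at 0.185, 0.0509 and 0 CPM after PBS and at 3.53, 4.72, 5.46 and 4.19 CPM after TNF (log2 fold change 5.79 ± 0.62 SE, adjusted p = 2.77e-06). *Bcl2l15* had only 4 counts in the PBS libraries, 3 of them in PBS replicate 1, and without that library its log2 fold change was 7.09. *Bnip3l*, a mitophagy receptor, rose by a log2 fold change of 0.55 ± 0.12 SE (adjusted p = 0.00167).

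Of those that fell, *Bcl2l2*, the gene of the pro-survival BCL-W, measured 93.3, 77.4 and 78.7 CPM after PBS and 53.3, 63.3, 60 and 57.1 CPM after TNF (log2 fold change -0.51 ± 0.11 SE, adjusted p = 0.000926). *Bcl2l13*, which shares exon bases with *Bid*, fell by a log2 value of 0.49 (adjusted p = 0.00135) while *Bid* rose. *Bcl2l14* fell by 0.54 (adjusted p = 0.0115), but by 0.28 without PBS replicate 2 (adjusted p = 0.104), the library in which it was highest at 82.7 CPM. *Bcl2l12* fell by 0.95 (adjusted p = 0.0445), a call that was lost when each PBS library in turn, or TNF replicate 1 or 4, was left out (adjusted p from 0.0589 to 0.118), and it shares 123 exon bases with *Irf3* and 807 with *Gm15545*. *Bbc3*, the gene of the BH3-only protein PUMA, had a log2 fold change of -0.31 ± 0.17 SE (adjusted p = 0.133; -0.48 and called at 0.0427 with scaling to total counts alone), and *Bnip3* one of -0.22 ± 0.23 SE (adjusted p = 0.431). *Bcl2a1a*, *Bcl2a1b* and *Hrk* had no count in any library. *Bcl2a1d* and *Bcl2l10* had none after PBS and under 0.5 CPM after TNF. The *Bcl2a1* copies are nearly identical, so their counts are uncertain.

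**Figure D4:**
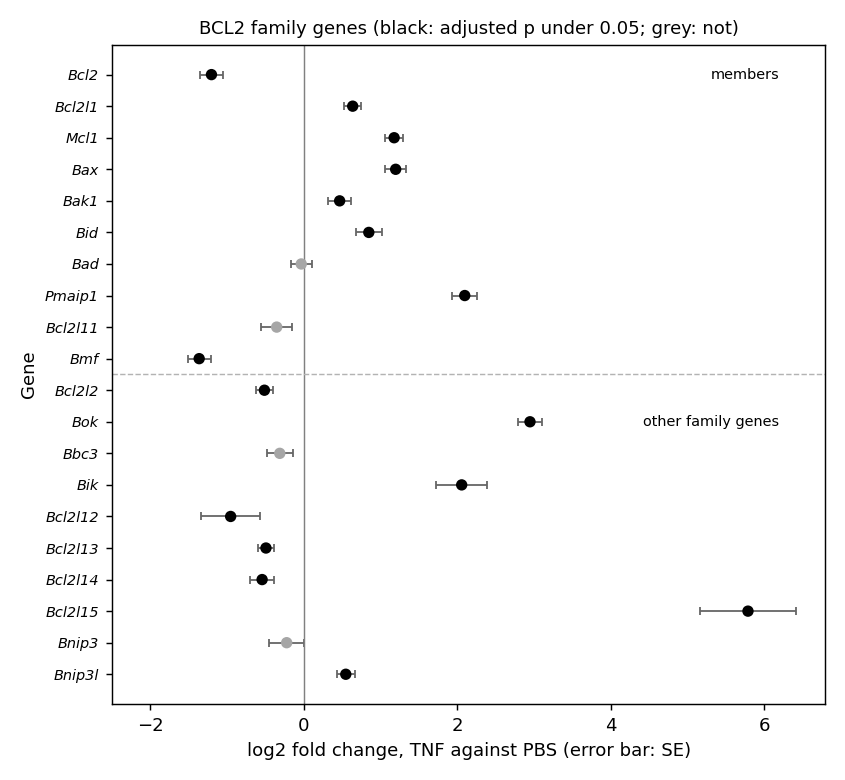
Log2 fold change of TNF against PBS with its SE for the 10 members (above the dashed line) and the 10 further family genes that were tested (below it), with called genes in black and others in grey. The points run from -1.36 for *Bmf* to 5.79 for *Bcl2l15*, and *Bad* lies at -0.03.

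Genes at and after the mitochondrial step were counted in a list of 20, all tested, of which 11 rose, 2 fell and 7 were not called, with a median log2 fold change of 0.37 against 0.0017 over all genes tested. The 65% of the list called is close to the 59.6% of all genes. With scaling to total counts alone, 7 of this list were called higher and 2 lower. *Birc3*, an inhibitor of apoptosis and ubiquitin ligase of the TNF receptor complex, rose most, from 24.4, 21.4 and 24.3 CPM to 192, 188, 169 and 196 CPM (log2 fold change 2.99 ± 0.11 SE, adjusted p = 2.33e-10). *Dffb*, the nuclease that cuts DNA in apoptosis, rose by 1.69 ± 0.19 SE (adjusted p = 4.74e-06). *Apaf1*, the scaffold that cytochrome c assembles, rose by 1.30 ± 0.15 SE (adjusted p = 7.75e-06). *Casp6*, an effector caspase, fell by 0.95 (adjusted p = 3.68e-05) and *Aifm1*, a mitochondrial flavoprotein, by 0.87 (adjusted p = 6.38e-05).

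Genes whose products act on the members were counted in a second list of 20, all tested, of which 10 rose, 3 fell and 7 were not called, with a median log2 fold change of 0.26. Here too 65% were called, close to the share over all genes. The largest rises were those of 3 survival kinases: *Pim1* (log2 fold change 1.42 ± 0.16 SE, adjusted p = 5.02e-06), *Akt1* (1.30 ± 0.11 SE, adjusted p = 2.82e-07) and *Pim3* (1.27 ± 0.14 SE, adjusted p = 3.14e-06), which can phosphorylate BAD. *Dynll2*, the dynein light chain that binds BMF, fell from 117, 136 and 110 CPM to 41.6, 38.7, 41.8 and 41.9 CPM (log2 fold change -1.56 ± 0.10 SE, adjusted p = 2.65e-08). *Trp53*, the gene of p53, which can transcribe *Bax*, *Pmaip1* and *Bbc3*, fell by a log2 value of 1.10 (adjusted p = 3.02e-05). *Usp9x*, a deubiquitinase of MCL1, fell by 0.39 (adjusted p = 0.00719).

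**Figure D5:**
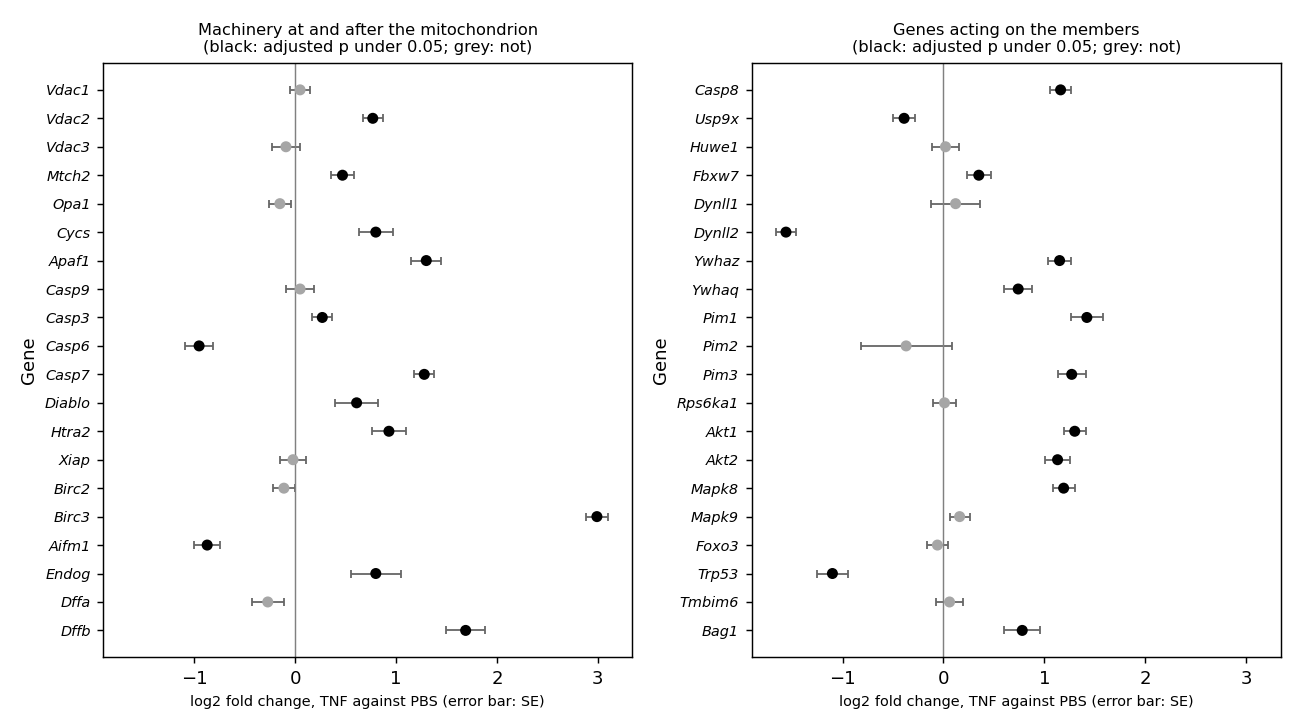
Log2 fold change of TNF against PBS with its SE for 20 genes at and after the mitochondrial step (left) and 20 genes acting on the members (right), with called genes in black and others in grey. *Birc3* stands furthest to the right at 2.99 and *Dynll2* furthest to the left at -1.56.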

How the data were processed

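Bulk RNA-seq of sorted PCs was analysed in 3 PBS and 4 TNF libraries, each from a separate mouse. The authors deposited raw counts per Ensembl gene for all 7 libraries in 1 table, with single-end reads per the labels. The submitters' processing notes name FastQC, Trimmomatic 0.39, STAR 2.7.10a, DESeq2 and the builds mm10 and mm39, without roles. The sources used here do not give the counting program, annotation or strand setting. Gene names, exon lengths and GRCm39 coordinates were taken from GENCODE M39, which held 98.8% of the identifiers.

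Genes were filtered with filterByExpr and tested with edgeR 4.0.16 in R 4.3.3 (TMM, robust quasi-likelihood fit, two-sided, Benjamini-Hochberg over all genes tested). The procedure was run on simulated counts in which far fewer genes changed than were called here, so that run does not test it on so broad a difference. DESeq2 1.42.0, limma-voom (limma 3.58.1), other scalings and filters, a replicate block and leaving out each library were the alternatives. The members and gene lists were chosen with earlier results of these data known. All members and further family genes are named, and from each pathway list the 3 largest called rises and falls with a mean of at least 1 CPM. The canonical transcript length, the role shares with further genes, the ratio pairs and the motifs were chosen after the data had been seen.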

Additional observations from a re-analysis of the deposited data

Results flagged for a closer look

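Of 43 values per group looked at, 5 held a library far from the other 3 of the TNF group by Dixon's test, where chance gives about 1 in 20. *Bcl2l11* was at 6.22 CPM in TNF replicate 4, against 8.72 to 9.18 CPM in the others. *Bnip3l* was at 92.4 CPM in the same library, against 66.5 to 69.9 CPM, and *Aifm1* at 19 CPM, against 15.5 to 15.9 CPM. In TNF replicate 2, *Dynll2* was at 38.7 CPM, against 41.6 to 41.9 CPM, and *Usp9x* at 230 CPM, against 260 to 264 CPM.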

How the results depend on the processing

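The 8 called members kept their direction in all 15 refits, and 7 of them stayed called, the exception being *Bak1*. With scaling to total counts alone, the all-gene median log2 fold change became -0.16 and the share of higher genes among calls went from 49.5% to 40.5%. Requiring at least a 2-fold change left 4530 of 8543 genes called, 5 of the 10 members, 3 of the further family genes and 4 of the mitochondrial genes. Not called in any refit, *Bad* changed sign to 0.01 with the replicate block, and ranged from -0.09 to 0.01 when each library was left out, turning positive without PBS replicate 2 (0.01) or 3 (0.00). The effector share moved by -1.39 percentage points without division by length and -0.36 with the canonical transcript, and the BH3-only share by -4.66 and -5.34, and the latter ranged from -1.66 to 0.19 when each library was left out, the highest being without PBS replicate 3. In shares chosen after seeing the data, adding *Bcl2l2* changed the pro-survival, effector and BH3-only differences to -0.23, -1.03 and 1.26 points, adding *Bcl2l2* and *Bok* to -4.32, 4.24 and 0.08, and adding *Bbc3* and *Bik* as well to -3.54, 4.46 and -0.92. These changes follow from the genes counted; for the others the cause was not tested.

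The labels do not say whether the replicate numbers pair the samples, and the main test did not treat them as pairs. Same-numbered libraries had correlations of deviations of -0.299, -0.0314 and -0.174, and they did not correlate best with their own number. With so few libraries these values do not settle whether days or batches were shared. With the replicate block 7131 genes were called, with 7 members, 6 further family genes, 11 mitochondrial genes and 12 genes acting on the members. *Bak1* (adjusted p = 0.0756), *Bcl2l12* (0.121) and *Bcl2l14* (0.0578) were not called there.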
